A study of Homo sapiens with 11 samples.

Results

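RNASE4 and ANG, the genes of ribonuclease 4 and angiogenin, were examined in PC-3 cells transfected with small RNA duplexes. PC-3 is a prostate cancer cell line of epithelial origin. All probes that carry either gene name were taken, which gave 1 probe for each gene, 2 of the 41000 probes on the array. RNASE4 was selected on its signal on the common-seed arrays (defined below) against the mock arrays, where it had the lowest fitted change of the 27118 probes tested. ANG was joined to it through its locus. For this reason the values of RNASE4 under the common-seed duplexes are given as a description with no test.

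The cells received transfection reagent without any small RNA (mock, 4 arrays), the siRNA dsEcad640 (1 array), or a duplex of miR-302a (1 array), miR-372 (2 arrays), miR-373 (1 array), miR-520c (1 array) or miR-520f (1 array). RNA was taken 24 h after transfection, and each array held RNA mixed from 4 transfections, so that an array is already an average over cultures. The arrays came in 3 sets. Next to mock sample 1, set 1 held sample 3 (miR-302a), sample 4 (miR-372) and sample 2 (dsEcad640). Set 2 held mock sample 8 with sample 6 (miR-520f) and sample 7 (miR-373). Set 3 held mock samples 9 and 11 with sample 10 (miR-372) and sample 12 (miR-520c). Every duplex was read against the mock arrays of its own set. dsEcad640 was designed against the E-cadherin promoter, and its antisense strand has the same seed as the miRNAs. A duplex of a control sequence was not among the samples, so that effects of a small RNA in general cannot be told apart from those of the seed.

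RNASE4 and ANG encode small secreted enzymes of the ribonuclease A superfamily. Angiogenin stimulates the growth of blood vessels. It also enters the nucleus, where it promotes ribosomal RNA transcription, and under stress it cuts tRNAs in the cytoplasm. The genes are arranged so that transcripts of both start at the same promoters and are spliced from shared noncoding first exons to separate coding exons, and a ribonuclease inhibitor encoded by RNH1 binds these enzymes tightly inside the cell.

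The mature strands of the transfected miRNAs are shown because the grouping of the duplexes rests on bases 2 to 8, the seed, which is in capitals (RefSeq, GRCh38.p14). A small RNA lowers mRNAs mainly through pairing of this stretch.

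hsa-miR-302a-3p: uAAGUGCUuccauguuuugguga

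hsa-miR-372-3p: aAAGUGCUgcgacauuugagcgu

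hsa-miR-373-3p: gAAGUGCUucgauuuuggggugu

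hsa-miR-520c-3p: aAAGUGCUuccuuuuagagggu

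hsa-miR-520f-3p: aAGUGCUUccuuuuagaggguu

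The first 4 of these strands share the seed AAGUGCU and are called the common-seed duplexes together with dsEcad640, 5 duplexes on 6 arrays. In miR-520f the same 7 bases lie at positions 1 to 7, and its own bases 2 to 8 read AGUGCUU.

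RefSeq listed 2 promoter windows for RNASE4 and 3 for ANG, each from 250 bases before to 50 bases after a transcription start, and both windows of RNASE4 were also windows of ANG. The 250 bases upstream of the shared starts are shown, since they are the sequence that both genes have in common (chromosome 14, plus strand, GRCh38.p14). Capitals mark the motifs that were searched on both strands, CACCTG (an E-box to which the repressor ZEB1 can bind), TATAAA and TATATA.

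Upstream shared window, chr14:20684310-20684559: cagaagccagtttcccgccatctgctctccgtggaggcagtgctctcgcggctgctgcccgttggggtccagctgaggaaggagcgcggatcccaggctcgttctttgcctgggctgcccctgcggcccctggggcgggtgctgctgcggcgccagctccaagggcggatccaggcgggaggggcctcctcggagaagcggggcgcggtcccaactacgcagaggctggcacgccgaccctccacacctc

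Downstream shared window, chr14:20688514-20688763: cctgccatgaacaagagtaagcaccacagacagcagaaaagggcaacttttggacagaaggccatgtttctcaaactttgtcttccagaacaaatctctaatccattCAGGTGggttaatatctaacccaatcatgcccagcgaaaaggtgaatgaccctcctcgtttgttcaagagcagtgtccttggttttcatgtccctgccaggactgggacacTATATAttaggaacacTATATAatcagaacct

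The shared promoters differed in composition. The upstream window, over its 300 bases, had a GC content of 69.3% with 25 CpG, and the downstream window had 45.7% with 2 CpG. The median window among 34943 distinct ones had 58.7% and 14 CpG. None of the 3 motifs was found in the upstream window. The downstream window held 1 CACCTG, read as CAGGTG at position 108 from its 5′ end, and 2 TATATA, at positions 219 and 235. CACCTG occurred in 20.6% of all windows, TATAAA in 11.6% and TATATA in 4.00%. The window that only ANG had, chr14:20683927-20684226, contained the tRNA gene TRP-TGG3-2. Which of these starts PC-3 cells use cannot be read from the arrays.

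The RNASE4 probe lies at chr14:20237809-20237868 of hg18, the build of the array's annotation, and is assigned to NM_194430. The ANG probe lies 5648 bases away at chr14:20232101-20232160 and is assigned to NM_001145. Each probe was represented by 1 spot per array. Whether a probe lies in a coding exon or in an untranslated region was not determined here. No spot of either gene was saturated or marked as an outlier.

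Levels below are log2 values in which 0 is the 75th percentile of the same array. The array of miR-372 sample 4 stood apart, where 88.1% of the probes were called well above background, compared with 54.4% to 72.9% elsewhere, and values without it are given beside the results. KRT8, KRT18, TACSTD1 and VIM, taken as markers of this line, passed the call on all 11 arrays. The leukocyte gene PTPRC passed it on 1 array. Of the 9 probes of the markers, 5, of KRT8 and KRT18, rose under the common-seed duplexes (limma adjusted p under 0.05). Among all probes tested, 2.16% rose at this threshold. Of 3 probes named KLK3, a gene of differentiated prostate epithelium, 1 was bright on 11 arrays (mock mean 5.19 ± 1.96, SD, n = 4) while the RefSeq one was above background on 1 array.

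RNASE4 was lower on every duplex array than on every mock array. As the RNA came from whole cultures, less of a transcript per cell and fewer cells with it cannot be told apart. On the mock arrays it was -1.81 in sample 1, -1.78 in sample 8, -1.45 in sample 9 and -2.18 in sample 11, with a mean of -1.81 ± 0.30 (SD, n = 4). Under the common-seed duplexes it was -4.83 with dsEcad640, -4.28 with miR-302a, -3.39 and -3.90 with miR-372 samples 4 and 10, -3.82 with miR-373 and -6.30 with miR-520c. With miR-520f it was -4.27. The highest duplex array, miR-372 sample 4, lay 1.21 below the lowest mock array, mock sample 11, whereas the mock arrays of set 3 differed from each other by 0.73. The probe stood between 22.0% and 36.5% of the 75th percentile on the mock arrays and between 1.27% and 9.52% of it on the duplex arrays.

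The fall of RNASE4 ended close to the background of the arrays. The processed signal was 145, 149, 359 and 220 on mock samples 1, 8, 9 and 11. On the duplex arrays it was between 8.87 and 68.5. The scanner's own error estimate for the spot, which is not a replicate error, rose from 10.0% to 10.3% of the signal on the mock arrays to 10.6% to 28.7% on the duplex arrays. The software called the RNASE4 spot well above background on 9 arrays, the exceptions being those of miR-520f and miR-520c. The size of the fall on these arrays is therefore uncertain. With RNASE4 on the miR-520f array raised to the lowest signal called there, the fall against its mock array was 5.12-fold. With miR-520c RNASE4 was 22.3-fold lower than the mean of the mock arrays of its set, as measured. That spot, at 8.87, lay above the lowest signal called on its array, 8.39, so that 22.3-fold is not a lower bound.

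ANG was also lower on every duplex array than on every mock array, but by much less. On the mock arrays it was 0.65 in sample 1, 0.60 in sample 8, 0.66 in sample 9 and 0.46 in sample 11, with a mean of 0.59 ± 0.094 (SD, n = 4). Under the common-seed duplexes it was -0.14 with dsEcad640, -0.10 with miR-302a, -0.21 and 0.15 with miR-372 samples 4 and 10, -0.13 with miR-373 and -0.39 with miR-520c. With miR-520f it was -0.17. The highest duplex array, miR-372 sample 10, lay 0.31 below the lowest mock array, again mock sample 11, and the mock arrays of set 3 differed by 0.20.

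The ANG spot passed the same call on all 11 arrays, and its processed signals were 781 to 1553 on the mock arrays and 489 to 1129 on the duplex arrays. Its scanner error was between 10.0% and 10.1% of the signal throughout. ANG stood between 137% and 158% of the 75th percentile in mock cells and between 76.1% and 111% with a duplex. The separation of the arrays seen for both genes, all 7 duplex arrays below all 4 mock arrays, was found for 752 of 26919 probes with a value on every array, 2.79%, and the opposite separation for 2.68%.

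**Figure D1:**
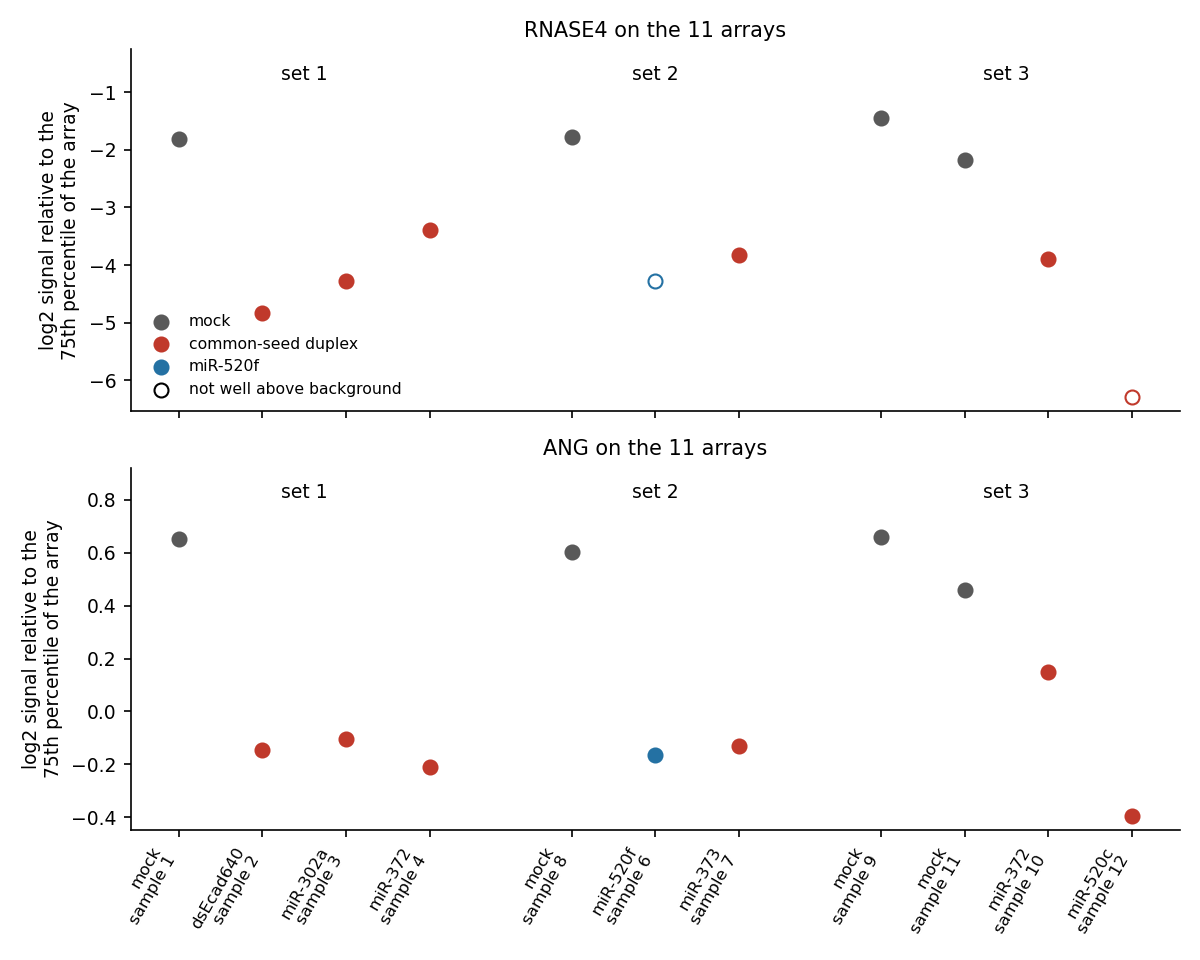
Signal of the RNASE4 probe (top) and the ANG probe (bottom) on each of the 11 arrays, by set, on a log2 scale whose 0 is the 75th percentile of that array; each point is 1 array, and an open point is not well above background. In both panels the 4 mock arrays lie above all 7 duplex arrays, with a gap of 1.21 for RNASE4 and 0.31 for ANG, and the vertical scales differ.

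In the fit over all arrays with the set as a block, ANG was 0.73 lower on the log2 scale under the common-seed duplexes than in mock cells (log2 change -0.73, SE 0.12, limma adjusted p = 0.0192), which is 60.1% of the mock level. At that threshold 1137 of the 27118 probes were called, 4.19%, of which 551 were lower (2.03%) and 586 higher (2.16%). ANG had the rank 500 from the lowest, and 1.84% of the probes changed as much or more downwards. The adjusted p of ANG was past the threshold by a small margin, since it rose to 0.152 without mock sample 1, to 0.0634 without mock sample 9 and to 0.0736 without either array of set 2 that enters this contrast, mock sample 8 or miR-373 sample 7. The change itself lay between -0.84 and -0.65 under all 17 alternatives. The fitted change of RNASE4 was -2.69 (SE 0.52), or 15.5% of the mock level, and it includes the miR-520c array as measured. With the normexp background correction, whose offset compresses dim signals, it was -1.38.

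Read array by array, RNASE4 was lower relative to mock than ANG on each of the 7 duplex arrays. With dsEcad640, RNASE4 was at 12.4% of the mock array of the set and ANG at 57.6%. With miR-302a these were 18.1% and 59.2%. With miR-373 they were 24.4% and 60.2%. The same order was thus seen in sets 1 and 2, where each duplex has 1 mock array to be read against.

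With miR-372, measured in both set 1 and set 3, RNASE4 was at 33.5% in sample 4 and at 23.7% in sample 10, and ANG at 55.0% and 75.2%. On this scaling the lower RNASE4 was in sample 10 and the lower ANG in sample 4. Sample 4 is the array on which more probes than elsewhere were above background. When the arrays were quantile normalized, the log2 change of RNASE4 there went from -1.58 to -3.81, and in the authors' normalized table it was -3.30, while that of ANG stayed between -0.92 and -0.86. The quantile-normalized change of RNASE4 in sample 10 was -1.88, so that after this normalization both genes were lower in sample 4. Under both of these settings RNASE4 in sample 4 was the lowest of set 1, and under the 75th percentile it was the highest of its duplexes.

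miR-520c gave the lowest array for both genes. On this scaling RNASE4 was at 4.49% of the mean of the set 3 mock arrays, as measured, and ANG at 51.7%. The log2 change of RNASE4 with the signal as measured was -4.48, and it was -4.84 against mock sample 9 alone and -4.11 against mock sample 11 alone. It was -4.03 after quantile normalization and -1.66 with the normexp correction, so that its size depended on the scaling and on the treatment of dim signals. For ANG the change was -1.05 against mock sample 9 alone and -0.85 against mock sample 11 alone.

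Over the 6 common-seed arrays the log2 change against the mock arrays of the set averaged -2.61 ± 1.03 (SD, n = 6) for RNASE4 and -0.75 ± 0.19 for ANG. Over the 5 arrays with RNASE4 well above background its mean was -2.23 ± 0.54. Without miR-372 sample 4 the means were -2.81 for RNASE4 and -0.73 for ANG. Over the 5 common-seed arrays on which RNASE4 was above background, the log2 change of RNASE4 minus that of ANG ranged from -2.22 to -0.72, and the ratio of the log2 changes from 1.83 to 5.05, with -0.72 and 1.83 both from miR-372 sample 4. The sizes depended on the treatment of dim signals: with the normexp correction the log2 changes over the 7 duplex arrays were -1.66 to -1.06 for RNASE4 and -0.92 to -0.41 for ANG. The direction was downwards for both genes on every duplex array under each of these settings. RNASE4 was chosen for its fall, so that the larger size of its change is a description.

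The seed of miR-520f is shifted by 1 base, and its array was not used to choose RNASE4, although it is read against the same mock arrays. On it RNASE4 was at 17.9% of the mock array of set 2 as measured and ANG at 58.7%. Raised to the lowest signal called on that array, RNASE4 was at 19.5%. In the fit the log2 changes were -2.81 for RNASE4 (SE 0.99, limma adjusted p = 0.288) and -0.77 for ANG (SE 0.23, limma adjusted p = 0.196). Neither passed the threshold, which 182 of 27070 probes did (0.672%). The value of RNASE4 uses the signal of its array as measured, which was not well above background, so that its size is uncertain. With dim signals raised to the lowest signal called on the array, the fitted log2 change of RNASE4 was -2.69. ANG had the rank 2175 from the lowest of the 27070 probes. The adjusted p ranged from 0.116 to 0.669 for RNASE4 and from 0.130 to 0.527 for ANG over the alternatives.

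The contrast of miR-520f with the common-seed duplexes in the same fit, added after the data were seen, gave -0.035 for ANG (95% interval -0.55 to 0.48, limma adjusted p = 0.994). The interval stays within 0.55 of 0, less than the fitted fall of ANG, and differences of that size in either direction are not excluded. For RNASE4 the same contrast gave -0.12. That value is a description with no test read from it, since the values of RNASE4 on the common-seed arrays chose it.

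No neighbouring gene that could be tested fell at the threshold together with the pair. Within 500 kb of either gene the array had 40 other probes, of which 18, from 16 genes, were bright enough to be tested. None fell and 1 rose under the common-seed duplexes, beside 2.03% and 2.16% of all probes, with changes between -0.56 and 0.64 and a median of -0.026 against 0.032 over all probes tested. The probe that rose was CCNB1IP1, a ubiquitin ligase gene 387 kb upstream (log2 change 0.64, SE 0.11, limma adjusted p = 0.0229), and its adjusted p went up to 0.164 without mock sample 1.

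The protein-coding genes directly upstream of the pair in RefSeq, OR6S1 and RNASE12, were not measured by a probe named for them within this distance. The closest probes on either side were too dim to be followed. RNASE11, 116 kb upstream, was well above background on 1 array. FAM12A (now EDDM3A), 48.3 kb downstream, and FAM12B (EDDM3B) were above it on none, and RNASE6 was on 1. The nearest gene that could be tested downstream was RNASE1, the pancreatic-type ribonuclease 102 kb away, with a log2 change of -0.03 (SE 0.32, limma adjusted p = 0.977). On the other side these were the transcript N90434 (0.23, SE 0.21, limma adjusted p = 0.611) and NP (now PNP, purine nucleoside phosphorylase) (0.13, SE 0.12, limma adjusted p = 0.599), both 223 kb away. With miR-520f 1 of the 18 probes was called, ENST00000344581, 270 kb upstream, which was higher (log2 change 2.91, limma adjusted p = 0.0432), beside 0.672% of all probes.

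Lists of genes related to angiogenin were read in the same fit. Of the ribonuclease A family outside the pair, 7 genes had 10 probes, and only the RNASE1 probe named above was bright enough to be tested. Among the inhibitor, receptors and partners of angiogenin, 11 of 13 probes were tested, and 2 fell and none rose, which is 18.2% of those tested, beside 4.19% of all probes. Both were probes of RNH1, the cytoplasmic inhibitor of RNASE4 and angiogenin. The median of this list was 0.10.

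RNH1 fell by 0.68 on the log2 scale at the first of these probes (log2 change -0.68, SE 0.13, limma adjusted p = 0.0336) and by 0.57 at the other (log2 change -0.57, SE 0.12, limma adjusted p = 0.0447). Both were lower on all 6 common-seed arrays than in the mock of the set, with log2 changes from -1.1 to -0.41 at the first, and both are assigned to RefSeq transcripts. A further probe named RNH1, assigned to a cDNA clone, was at 0.10 (limma adjusted p = 0.712), and its change was -0.07 after quantile normalization and in the authors' table. The calls were close to the threshold: leaving out 1 array ended that of the first probe in 8 of 10 cases and that of the other in 9 of 10, with adjusted p of up to 0.198 and 0.234, both without mock sample 1. The signals of ANG and of the RefSeq probes of RNH1 were thus lower by similar sizes, while the cDNA clone probe of RNH1 was not. Proteins were not measured, and a test of the ratio of ANG to RNH1 was not made. PLXNB2, the receptor of angiogenin on many cells, was at 0.15 and 0.14 at its probes (limma adjusted p = 0.340 and 0.357).

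Of the other ribonucleases and tRNA methyltransferases, none of the 17 probes tested was called by limma at an adjusted p under 0.05, and their median was 0.0055. Among secreted angiogenic factors 27 of 35 probes were tested, and 1 fell and 1 rose, 7.41% of those tested beside 4.19% of all probes, with a median of -0.064. ANGPTL4, a secreted inhibitor of lipoprotein lipase, fell (log2 change -1.0, SE 0.19, limma adjusted p = 0.0324), and its adjusted p was 0.172 without mock sample 1. PDGFB, the B chain of platelet-derived growth factor, rose (log2 change 1.30, SE 0.089, limma adjusted p = 0.00135), by 1.24 to 1.56 on each of the 6 arrays, and its call held under all 17 alternatives.

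The vascular endothelial growth factors and fibroblast growth factors measured had no probe past the threshold. For ribosomal RNA transcription, the process that nuclear angiogenin promotes, 1 of 23 probes tested was called, 4.35%, a share near the 4.19% of all probes. It was POLR1B, a subunit of RNA polymerase I, which rose (log2 change 0.45, SE 0.099, limma adjusted p = 0.0471), and its other probe was at 0.55 (limma adjusted p = 0.0761). Without the set as a block the adjusted p of the first was 0.585, and it was lost in 9 of the 10 fits that left out 1 array. No probe of these 5 lists was called for miR-520f by limma.

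The pattern of each gene over the arrays was set beside those of 26918 other probes, after the mean of the mock arrays of the set had been subtracted. Pearson's r between RNASE4 and ANG over the 11 arrays was 0.904, and the median r over all probes was 0.016 with RNASE4 and -0.071 with ANG. The points share the mock arrays and the step from mock to duplex, so that the r describes mainly this step and carries no test. By this measure 324 probes were closer to RNASE4 than ANG was, and 186 were closer to ANG than RNASE4 was.

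The probes most like RNASE4 were those of ENST00000344762 (r = 0.99), FAM107A (0.986), ENST00000261569, described as a microtubule-associated kinase (0.985), TMEM50B (0.979) and COL6A3 (0.978), and their fitted log2 changes lay between -1.50 and -0.62. Those most like ANG were WHSC1 (0.984), SSPN (0.977), DKFZP586P0123 (0.977), TMEM107 (0.976) and THC2613527 (0.974), with log2 changes between -0.65 and -0.29.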

How the data were processed

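The authors deposited the scanner output of Agilent Feature Extraction 10.5.1.1 for 11 1-colour arrays, and per the file headers the processed signal used here is an intensity corrected for background within the array. A table of log2 values deposited by the authors was used as an alternative, and its normalization is not given in the sources used here. The 75th percentile of an array was subtracted from its log2 signals, outlier spots were left out (52 to 209 of 43376), and replicate spots were averaged. Each set was 1 slide. Testing was limited to probes that the software called well above background on 6 or more of the 11 arrays. limma 3.58.1 in R 4.3.3 fitted mock, common-seed duplexes and miR-520f with the set as a block, with two-sided tests, Benjamini-Hochberg adjustment over all tested probes and a threshold of 0.05. The steps were tested on simulated data. The fit had 1 array of miR-520f, whose spread was taken from the others. Where a spot was not well above background, fitted values used it as measured. The fold of its pair took the higher of its signal and the lowest signal called on the array, which is not a firm bound. Tables were handled in Python 3.11.15 with pandas 2.3.3 and numpy 2.4.6, and figures were drawn with matplotlib 3.10.9.

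The members and gene lists were chosen with earlier results of these data known. Named from the lists were genes with a probe at an adjusted p under 0.05 (up to 5 per direction), RNH1, PLXNB2, the nearest measured genes on each side and the 5 probes most alike to each member. One array is titled miR-530f and otherwise labelled miR-520f, and was used as miR-520f. Alternatives were no block, quantile normalization, the normexp correction of raw signals (offset 50), the authors' table, no filter, a filter on all 11 arrays, a raised floor and leaving out each array. Whether mock arrays came from separate RNA mixes is not stated, so that p-values measure only the spread between these arrays, and the number of arrays limits the precision.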

Additional observations from a re-analysis of the deposited data

How the results depend on the processing

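No result changed direction among the members under any alternative, and the only reversal was at the RNH1 probe of the cDNA clone, whose change of 0.10 became -0.065 after quantile normalization and -0.072 in the authors' table. ANG under the common-seed duplexes kept its call under 12 of 17 alternatives. It lost it without the filter (-0.73, adjusted p = 0.0700) and without mock sample 1, 8 or 9 or miR-373 sample 7, and leaving out 1 array gave -0.84 to -0.65. The fitted change of RNASE4 was -3.01 to -2.17 when 1 array was left out and -1.38 with normexp, and it had no value with the filter on all 11 arrays. In the authors' table RNASE4 had values in set 1 alone. For miR-520f no alternative brought ANG or RNASE4 past the threshold. The count of 1137 probes for the common-seed duplexes was 382 without the block, 222 without the filter and 2098 with the filter on all arrays, and 24 to 1935 when 1 array was left out, the lowest without mock sample 1 and the highest without miR-372 sample 4. The count of 182 for miR-520f was 83, 1 and 331 in the same order, 454 after quantile normalization, 102 with normexp and 0 to 792 when 1 array was left out, with the same arrays at the ends; at an unadjusted p under 0.05 it was 3363 in the full limma fit. The causes of these shifts were not tested. No paired analysis was possible because no sample number occurs in more than 1 group, and the set, which holds mock and duplex arrays, served as the block instead. Signal over background limits RNASE4 on the duplex arrays, and 1 probe per gene leaves isoforms of the shared locus unresolved.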
